A study of Mus musculus with 1824 samples.

Results

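Fibroblast growth factors (FGFs) and their receptors were followed in single cells of mouse chimaeras collected at embryonic day (E) 7.5 and E8.5. The genes were chosen by symbol, through the Ensembl identifier of each row of the count table, and comprised 6 ligands (Fgf3, Fgf4, Fgf8, Fgf10, Fgf15 and Fgf17) and 4 receptors (Fgfr1, Fgfr2, Fgfr3 and Fgfr4), 10 of 55487 genes in all. The experiment held 1824 wells on 19 plates, and RNA was sequenced per cell by Smart-seq2, which reads along the whole transcript and carries no molecular identifiers. Of these wells, 1634 cells passed (89.5% of the wells on 11 E7.5 plates and 89.7% of those on 8 E8.5 plates), with between 100941 and 6162793 reads and a median of 678018.

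Both stages came from chimaeras made with embryonic stem (ES) cells that lack all Tet enzymes (Tet-TKO) and carry an H2B-tdTomato reporter. The ES cells were put into wild-type C57BL/6J blastocysts, which were carried by CD1 recipients, and CD1 is the strain given in the labels. No treatment was given. The labels do not say whether a well held a Tet-TKO or a host cell, nor from which sorting gate (KDR, CD41) it came, so no comparison by genotype or gate was made, and cells of both kinds were pooled throughout. A single Tet-TKO line stands behind the model. Only 4 plates, all E7.5, name an embryo (embryos 1, 2, 4 and 5). The other 7 plates at E7.5 (a chimera plate and 6 named by sequencing lane) and all E8.5 plates name none, and the study's methods describe pooling of chimaeras, so E8.5 was treated as 1 sample and its plates as technical units.

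FGFs are secreted proteins that bind receptor tyrosine kinases together with heparan sulfate and signal largely through the ERK pathway, which in turn switches on ETS factors and feedback inhibitors such as Sproutys. In the gastrula, Fgf4 and Fgf8 act in the primitive streak, where cells lose epithelial character and migrate, and Fgfr1 is the main receptor of the epiblast and its mesoderm. Fgfr2 is known from the trophoblast lineage, which answers to Fgf4 from the embryo proper, while Fgf3 and Fgf10 are ligands that prefer the epithelial splice form of Fgfr2.

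Cells were grouped into 25 clusters with the 10 genes and the listed FGF pathway genes left out, and clusters were called by lineage markers, which gave 17 class names. Marker names carry "-like", and 22 class-by-stage groups held at least 20 cells. Levels are CPM, the reads of a gene scaled to the total reads of a group, and detection is the share of cells with at least 1 read after each cell was thinned to 100000 reads. Values of different genes are set side by side only as CPM per kilobase of transcript. Bracketed intervals are exact 95% Poisson intervals, which cover counting error only. Plates were sorted for different populations, so in many classes plate and class cannot be told apart.

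**Figure D1:**
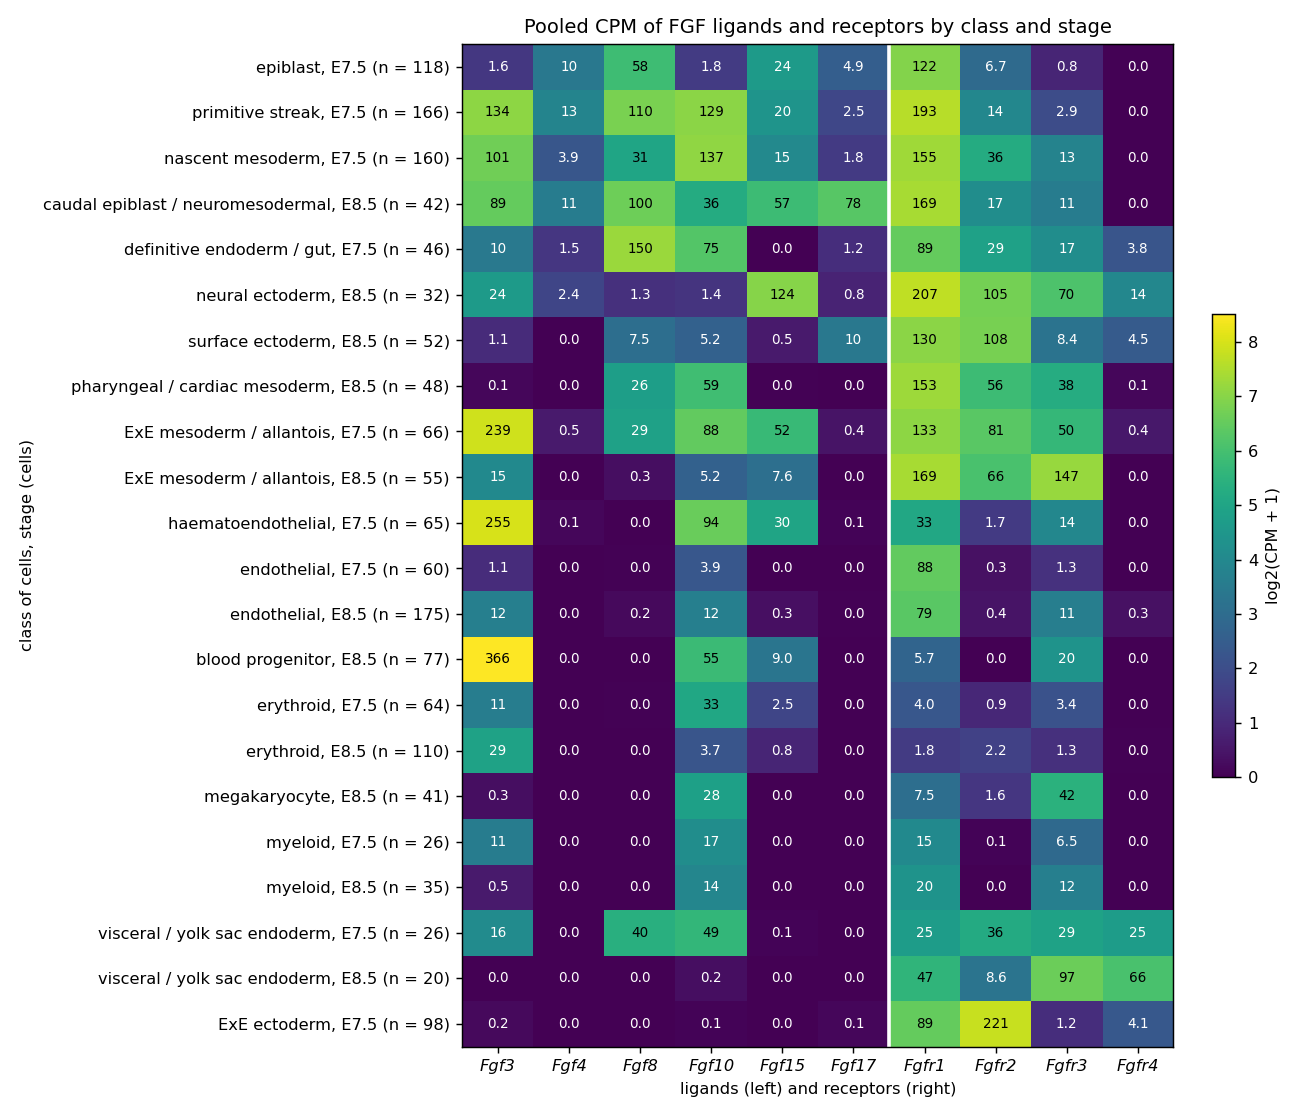
Pooled CPM of the 10 genes (columns; ligands left, receptors right of the white line) in classes of at least 20 cells at E7.5 and E8.5 (lines, with the number of cells n); colour is log2(CPM + 1) and the printed number is CPM. Fgf3 was highest in blood progenitor-like cells (365.8), Fgfr2 in extraembryonic (ExE) ectoderm-like cells (220.9), and Fgfr1 was above 75 in most classes outside blood.

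Fgf3 and Fgf10 were the ligands called higher than in epiblast-like cells in the tests between classes. Fgf3 lies on chromosome 7 (chr7:144838083-144844436, forward strand, GRCm38), 2930 bases before Fgf4 (chr7:144847367-144865243), and Fgf15, the mouse counterpart of human FGF19, follows 31287 bases further on (chr7:144896531-144900953). The 3 ligands thus share 62871 bases of 1 locus, whereas Fgf10 lies on chromosome 13 (chr13:118669791-118792115, forward strand). Promoter windows of both are shown because both were called higher in streak-like and ExE mesoderm-like cells. They lie at the gene starts of RefSeq on GRCm38.p6, which fall inside the spans given above, for Fgf3 (chr7:144838362-144838594, forward strand, GC content 54.9%) and for Fgf10 (chr13:118714449-118714698, forward strand, GC content 61.2%). Capitals mark matches, on either strand, to GATAA, the core bound by GATA factors, and GGGCGG, the core bound by Sp factors.
Fgf3: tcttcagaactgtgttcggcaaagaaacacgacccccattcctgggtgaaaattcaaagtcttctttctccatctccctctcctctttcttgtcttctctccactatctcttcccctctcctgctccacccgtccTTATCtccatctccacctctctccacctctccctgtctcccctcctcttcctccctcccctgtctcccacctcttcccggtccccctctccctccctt
Fgf10: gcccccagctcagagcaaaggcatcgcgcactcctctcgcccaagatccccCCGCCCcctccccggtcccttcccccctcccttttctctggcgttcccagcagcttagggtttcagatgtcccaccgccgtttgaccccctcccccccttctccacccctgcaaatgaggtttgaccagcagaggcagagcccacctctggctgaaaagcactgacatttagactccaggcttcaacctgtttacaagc
The Fgf3 window held 1 match to GATAA, read here as TTATC, and none to GGGCGG. The Fgf10 window held 1 match to GGGCGG, read here as CCGCCC, and none to GATAA. Of 32851 promoter windows, 21.6% held GATAA and 30.3% GGGCGG at the length of the Fgf3 window, and 22.6% and 32.7% at that of Fgf10, so neither match is rare.

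Fgf3, an early signal of streak and hindbrain, ranged from no read to its highest level in blood progenitors. In the 77 blood progenitor-like cells at E8.5 it reached 365.8 CPM (360.6 to 371.1), with reads in 58 cells, or 75.3%. The 2 plates with at least 5 such cells gave 415.5 and 258.6 CPM. In ExE mesoderm and allantois-like cells at E7.5 it stood at 239.2 CPM, and the 6 plates ran from 90.6 to 393.9. Haematoendothelial-like cells, the shared forerunners of blood and vessels, held 255.2 CPM at E7.5. The 2 plates with at least 5 of them differed (59.4 and 246.8). The pooled value lies above both, so cells on plates with fewer than 5 of them raised it. The gaps between these leading classes were within the spread of the plates. Primitive streak-like cells followed with 134.1 CPM and nascent mesoderm-like cells with 101.1. The classes at the other end show how low the background can be: E7.5 endothelial-like cells held 1.13 CPM and ExE ectoderm-like cells 0.2, while visceral endoderm-like cells at E8.5 had no read.

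Fgf3 in blood classes differed between plates. Erythroid-like cells, the primitive red cells, held 29.2 CPM of Fgf3 at E8.5, but this was 151.99 on plate 2 and 0.36 on plate 1. Within a single erythroid cluster the cells on plate 2 (31) held 180.4 CPM and those on plate 1 (16) held 0.8. Plate 2 also gave the higher blood progenitor value. The paper, from separate libraries, lists Fgf3 among genes upregulated in Tet-TKO erythroid cells, and the labels give no genotype here. Plate and genotype cannot be told apart, and the part of either in these levels was not tested. Outside plate 2 the level rests on plate 6, where blood progenitor-like cells held 258.6 CPM and endothelial-like cells 15.2.

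Fgf10, best known as a mesenchymal signal in limb and lung, was highest by name in nascent mesoderm-like cells (136.6 CPM at E7.5) and primitive streak-like cells (129.03). Its plates spread widely, from 10.7 to 205.4 in the first class and from 0 to 170.3 in the second. Blood progenitor-like cells carried it in 70.1% of cells at 54.9 CPM. The nascent mesoderm value belongs to a single cluster: cluster 7 (66 cells) held 203.3 CPM, cluster 4 (94 cells) 5.8. On the lane plate where both occurred, 5 cells of cluster 7 held 159.5 CPM and 51 of cluster 4 held 6.9. Cluster 7 had none of its class markers among its 10 leading genes. Under 5 other groupings nascent mesoderm-like cells held 2.28 to 5.98 CPM and another class led, but where the cells of cluster 7 went was not followed. Cells of cluster 7 had a median of 1325391 reads and those of cluster 4 one of 415830.5. The part of depth in this difference was not tested.

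Fgf8, needed for cells to move away from the streak (chr19:45736798-45742915, reverse strand), led in definitive endoderm and gut-like cells with 149.9 CPM at E7.5, over 5 plates from 66.8 to 203.7. The cluster that held this class had Noto, an axial mesoderm marker, among its 10 leading genes, beside Foxa2, listed for axial mesoderm and endoderm. The part of axial cells in the levels of this class was not tested. Streak-like cells held 110.1 CPM, with 8 plates from 32.4 to 309.3, so their plates overlapped with those of definitive endoderm-like cells. Caudal epiblast and neuromesodermal-like cells, the source of the growing trunk, held 99.7 CPM at E8.5. Epiblast-like cells held 58.1 CPM over a range from 4.81 to 93.3. The E7.5 visceral endoderm-like cells of embryos 4 and 5 gave 8.07 and 94.3 CPM. Blood and endothelial classes held at most 0.2 CPM.

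Streak-like cells were not uniform in their ligands. Cluster 23 (38 cells) held Fgf8 at 343.3 CPM, Fgf3 at 18.5 and Fgf10 at 2.9. Cluster 0, the larger, held Fgf8 at 61.3, Fgf3 at 158.4 and Fgf10 at 155.5. Fgf8 was thus high in a different cluster of the class than Fgf3 and Fgf10. No plate held at least 5 cells of both clusters, but on the 6 plates with any cell of both, pooled, the 26 cells of cluster 23 held Fgf8 at 364.3, Fgf3 at 17.9 and Fgf10 at 3.56 CPM, and all cells of cluster 0 were on these plates. Of those 26 cells, 13 came from lane plate 6, which held fewer than 5 cells of cluster 0. The part of the plate in this difference was not tested. Cluster 0 carried as many markers of nascent mesoderm as of streak, and cluster 23 carried 6 markers of streak and 5 of epiblast. The part of these other markers in the difference was not tested. The paper, from separate libraries, lists Fgf8 among genes upregulated in Tet-TKO nascent mesoderm cells. The labels give no genotype here, so the part of genotype was not tested either.

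**Figure D2:**
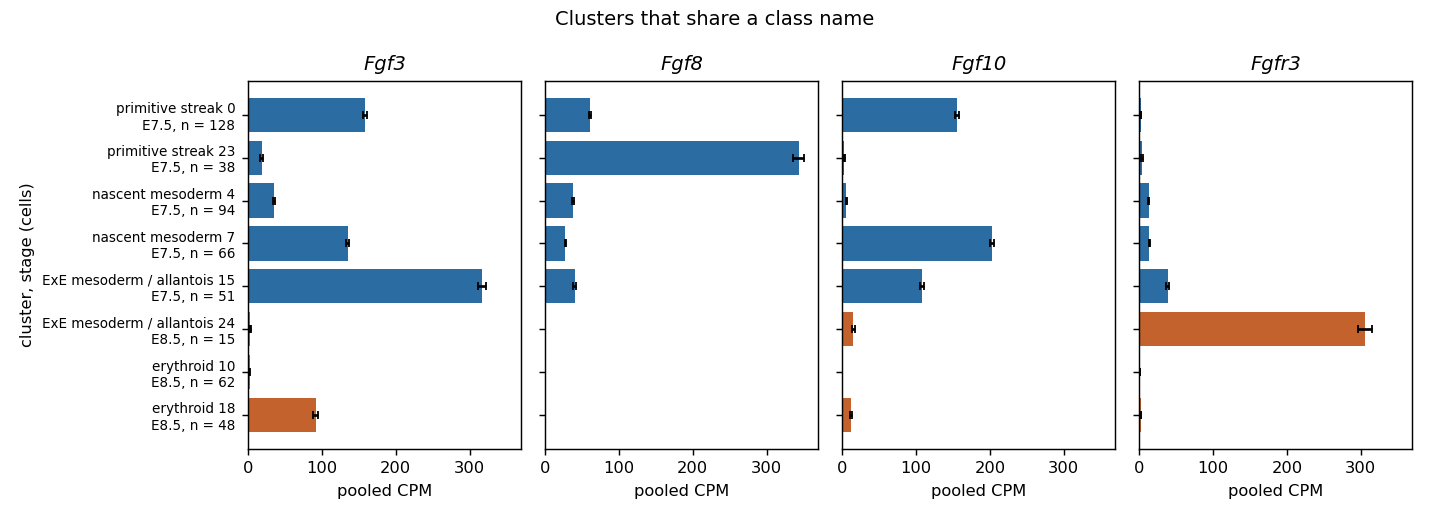
Pooled CPM (horizontal axis) of Fgf3, Fgf8, Fgf10 and Fgfr3 in 8 clusters that share a class name with another cluster (vertical axis, with stage and number of cells n; blue E7.5, orange E8.5); bars start at 0 and error bars are exact 95% Poisson intervals. Fgf8 was 343.3 in streak-like cluster 23 and 61.3 in cluster 0, and Fgf10 was 203.3 in cluster 7 and 5.8 in cluster 4.

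Fgf17, a close relative of Fgf8 (chr14:70636203-70642268, reverse strand), was high in the caudal class alone by size: 77.7 CPM at E8.5, with 77.5 and 80.6 on its 2 plates, and 48.5 in 16 cells at E7.5. The next group of at least 20 cells, surface ectoderm-like cells, held 9.70 CPM, of which 18.9 came from 1 plate and 0 from the other. Of 92 cells with Fgf17 reads after thinning, 68 also had Fgf8, which was found in 22.9% of all cells. Fgf4, the early epiblast ligand, stayed low: 13.5 CPM in streak-like, 11.01 in E8.5 caudal and 9.74 in epiblast-like cells. It was found in 14.5%, 11.9% and 22.03% of their cells.

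Fgf15 was highest in neural ectoderm-like cells, with 123.95 CPM at E8.5 over plates of 56.7 and 304.3, and 74.3 CPM in 18 cells at E7.5. Caudal cells held 56.8 CPM at E8.5 and ExE mesoderm-like cells 52.2 at E7.5. Definitive endoderm-like, ExE ectoderm-like and endothelial-like cells at E7.5 all rounded to 0.0 CPM. In neural cells at E8.5 Fgf15 made up 68.5 of the 81.5 CPM per kb of all 6 ligands.

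Fgfr1, the main receptor of epiblast and mesoderm (chr8:25513654-25575718, forward strand), was the most widely found of the genes, in 83.6% of E7.5 and 58.8% of E8.5 cells after thinning. Neural ectoderm-like cells (206.6 CPM, the higher plate 235.5) and streak-like cells (192.9 CPM, plates 35.5 to 285.4) led, with no gap beyond the plate spread. E8.5 ExE mesoderm-like cells held 169.3 CPM and had reads in all 55 cells. It fell away along the blood classes: endothelial-like cells held 88.04 CPM at E7.5 and 79.4 at E8.5, haematoendothelial-like 33.4, myeloid-like 15.4 and 19.97, megakaryocyte-like 7.5, blood progenitor-like 5.7 and erythroid-like 4.0 and 1.8. On plate 6, which held both, blood progenitor-like cells had 11.3 CPM and endothelial-like cells 59.1.

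Fgfr2 (chromosome 7, reverse strand) was highest in ExE ectoderm-like cells, the trophoblast derivative. They held 220.9 CPM, with plates at 236.9, 215.7, 195.4 and 146.6, and 93.9% of cells had reads. The step to surface ectoderm-like cells (108.2 CPM) was 1.02 on the log2 scale against a plate SD of 0.41, 1 of only 2 top steps beyond that spread. Neural ectoderm-like cells held 104.7 CPM at E8.5, and endothelial and blood classes at most 2.2. Reads were counted per gene, so the splice forms of Fgfr2, on which ligand choice depends, were not resolved, and its annotated span (chr7:130162451-133123350) runs over other genes.

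Fgfr3 (chr5:33721674-33737068, forward strand), best known from cartilage, was highest in ExE mesoderm and allantois-like cells at E8.5 (146.9 CPM), but plate 8 gave 302.3 and plate 4 gave 12.9. Without the 2% deepest cells of each plate, neural ectoderm-like cells led the groups of at least 20 cells with 75.7 CPM. As a mean over cells ExE mesoderm-like cells held 93.2. Of 20 visceral and yolk sac endoderm-like cells at E8.5, 17 were positive for Fgfr3, and the class gave 96.7 CPM. With 20 cells this class is at the minimum for the ranking, so any loss of cells takes it out. Neural ectoderm-like cells gave 69.99 with plates at 61.3 and 77.1. Megakaryocyte-like cells held 42.2 CPM on their 1 plate, the highest Fgfr3 level among blood classes. A pseudogene of Fgfr3 exists, and the handling of reads that match both is not given in the sources used here.

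Fgfr4 (chr13:55152640-55168759, forward strand), the receptor of endoderm and liver, was high in visceral and yolk sac endoderm-like cells, with 65.7 CPM at E8.5 and 25.1 at E7.5. The step between the stages, 1.35 on the log2 scale, was beyond the plate SD of 1.02, although the E8.5 class had only 1 plate with at least 5 cells. Neural ectoderm-like cells followed with 14.3 CPM, from plates of 19.4 and 3.21. Every other class of at least 20 cells was at or below 4.51. Over all 10 genes, 16 steps between classes neighbouring in level were beyond the plate SD, 8 had too few plates and the others were within it.

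Summed per kilobase, the balance of ligands and receptors differed between classes. Blood progenitor-like cells held 177.5 CPM per kb of ligand, 89.7% of it Fgf3, against 5.8 of receptor. Haematoendothelial-like cells held 150.6 against 10.4. ExE ectoderm-like cells were the reverse, with 0.2 CPM per kb of ligand and 70.4 of receptor, 72.8% of it Fgfr2. E8.5 visceral endoderm-like cells held 0.1 against 53.8. Streak-like cells (201.1 and 42.3) and E8.5 caudal cells (213.9 and 40.03) were high in both sums. ExE mesoderm-like cells went from 179.2 of ligand and 56.9 of receptor at E7.5 to 12.3 and 83.6 at E8.5, in different clusters. Neural ectoderm-like cells were even, at 81.5 and 86.1. Fgfr1 was the highest receptor per kb in 14 of the 22 groups, Fgfr3 in 5, Fgfr2 in 3 and Fgfr4 in 0.

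In single cells, the share with both a ligand and a receptor differed between classes. After thinning, 57.1% of the 1634 cells had a ligand, 78.8% a receptor and 47.7% both, against 44.97% from the product of the separate shares. Both were found in 63.2% of E7.5 and 26.6% of E8.5 cells. Of streak-like cells 95.2% had both. Of 77 blood progenitor-like cells 72 had a ligand and 26 a receptor, and 47 had a ligand only. Of 98 ExE ectoderm-like cells all had a receptor and 8 a ligand. Of endothelial-like cells at E8.5, 76.6% had a receptor and 49 cells a ligand. Fgf3 and Fgf10 were found together in 17.8% of all cells against a product of 9.5%. Within streak-like cells this was 59.6% against 47.96%, and within blood progenitor-like cells 51.9% against 52.8%. Cells of a class share plates and depth, so these shares are descriptions.

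The 4 named embryos allowed a test between classes within animals. Cells of each class were summed per embryo and set against epiblast-like cells of the same embryos, with the embryo as a block, by edgeR's quasi-likelihood test over 17175 genes. A call needed a Benjamini-Hochberg adjusted p of at most 0.01 and a log2 fold change of at least 1 in size. All 10 genes were tested. Definitive endoderm-like cells came from embryos 1 and 2 only, and ExE ectoderm-like and visceral endoderm-like cells from embryos 4 and 5 only.

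Fgf3 was near absent from epiblast-like cells, at 0.4, 1.3, 0 and 0 CPM in embryos 1, 2, 4 and 5, and rose in the streak and the ExE mesoderm. In primitive streak-like cells it was 124.3, 174.3, 123.2 and 123.8 CPM, a log2 fold change of 7.91 ± 0.43 (SE, edgeR adjusted p = 1.8e-07). In ExE mesoderm-like cells it was 269.6, 393.9, 245.5 and 164.8 CPM, a log2 fold change of 8.79 ± 0.44 (edgeR adjusted p = 4.5e-08). No embryo's epiblast value came near its mesoderm value.

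Fgf10 moved the same way. Epiblast-like cells held 2.2, 3.3, 0 and 0 CPM. Streak-like cells held 134.4, 170.3, 150.2 and 136.5 CPM, a log2 fold change of 6.30 ± 0.63 (edgeR adjusted p = 5.2e-05). ExE mesoderm-like cells held 171.1, 73.8, 149.8 and 167.3 CPM (log2 fold change 6.21 ± 0.63, edgeR adjusted p = 3.9e-05). It also rose in both endoderms. Definitive endoderm-like cells of embryos 1 and 2 held 117.4 and 66.9 CPM (log2 fold change 5.42 ± 0.66, edgeR adjusted p = 6.7e-04). Visceral endoderm-like cells of embryos 4 and 5 held 64.3 and 33.9 CPM, with no read in the epiblast-like cells of those embryos (log2 fold change 4.89 ± 0.71, fitted with the epiblast-like cells of all 4 embryos, edgeR adjusted p = 3.4e-04). The definitive endoderm call was lost without embryo 1 and the visceral endoderm call without embryo 4.

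Fgfr2 rose in ExE ectoderm-like cells, which held 236.9 and 215.7 CPM in embryos 4 and 5 against 6.2 and 0.5 in epiblast-like cells (log2 fold change 5.13 ± 0.71, edgeR adjusted p = 3.9e-04). In ExE mesoderm-like cells it was 54.2, 39.8, 60.8 and 104.7 CPM against 8.5, 8.4, 6.2 and 0.5 (log2 fold change 3.27 ± 0.58, edgeR adjusted p = 0.0028). The groups did not overlap in either case. Both calls were lost without embryo 4.

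The lower calls were of 3 genes. Fgf15 stood at 20.3, 15.1, 9.9 and 15.5 CPM in epiblast-like cells. It had no read in definitive endoderm-like cells (at least 86.2-fold lower, edgeR adjusted p = 8.7e-04) or in ExE ectoderm-like cells (at least 223.7-fold lower, edgeR adjusted p = 6.9e-05), where both bounds take 3 reads over the group as the floor and cover counting error only. In visceral endoderm-like cells it was 0 and 0.2 CPM (edgeR adjusted p = 2.9e-04). The definitive endoderm call was lost without embryo 1 or embryo 2, and the visceral endoderm call without embryo 4 or embryo 5. Fgf8 was at 0 and 0.1 CPM in ExE ectoderm-like cells against 4.8 and 93.3 in epiblast-like cells (log2 fold change -10.07 ± 1.44, edgeR adjusted p = 4.9e-04), and the single read behind the lower value leaves the size of that fold uncertain. Fgfr1 was at 3.5 and 29.9 CPM in visceral endoderm-like cells against 187.1 and 144.3 (log2 fold change -3.30 ± 0.57, edgeR adjusted p = 0.0013).

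**Figure D3:**
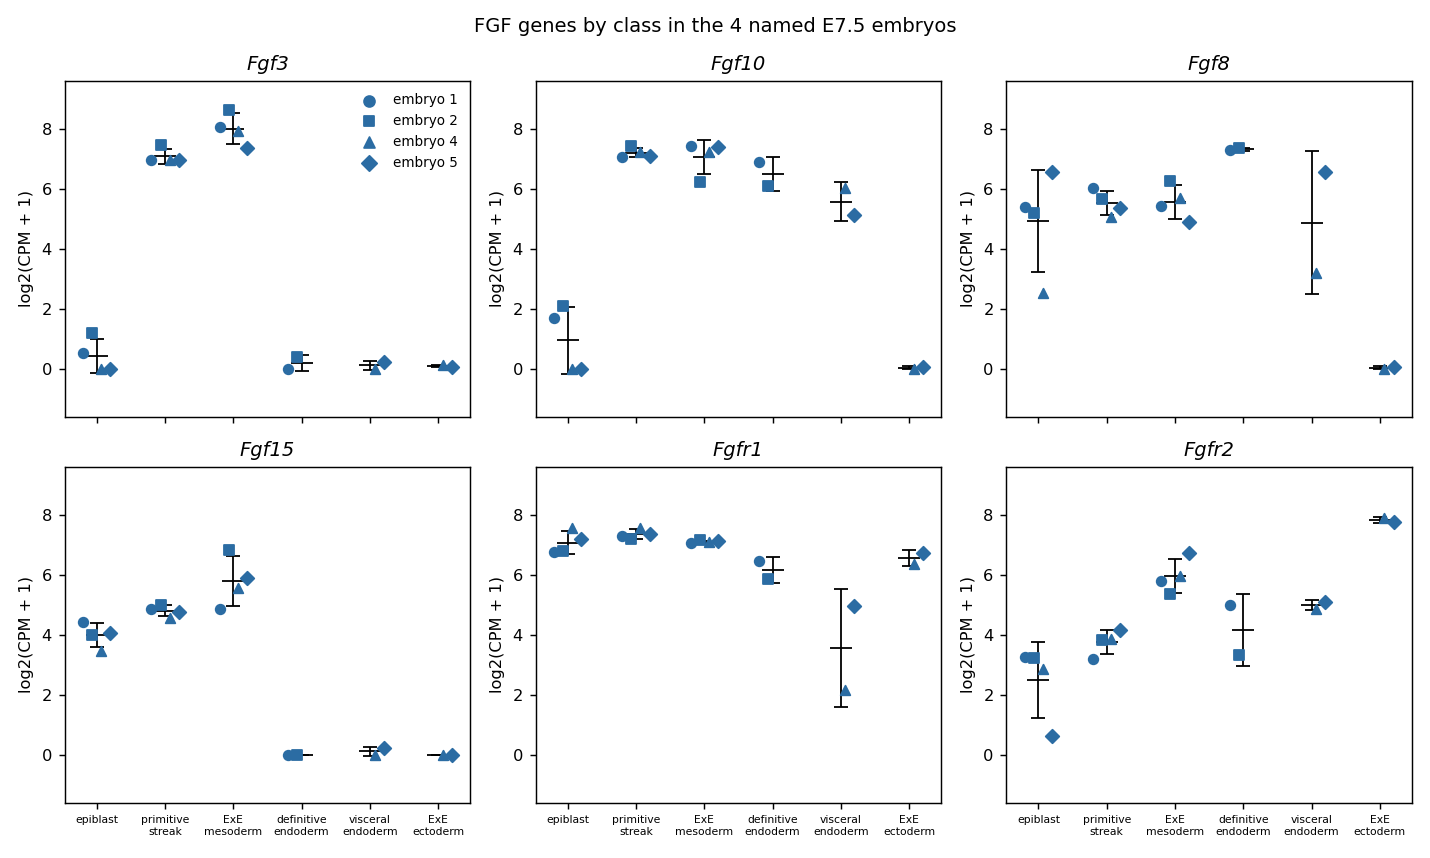
log2(CPM + 1) of Fgf3, Fgf10, Fgf8, Fgf15, Fgfr1 and Fgfr2 (vertical axes) in each class (horizontal axes) of the named E7.5 embryos; each symbol is 1 embryo, the dash is the mean and the bar the SD over embryos (2 to 4). Fgf3 and Fgf10 lie near 0 in epiblast-like cells and above 60 CPM in streak-like and ExE mesoderm-like cells of all 4 embryos.

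By class, the calls among the 10 genes were 2 higher and 0 lower in streak-like cells, where 0.955% of all genes tested were higher and 0.547% lower. ExE mesoderm-like cells had 3 higher and 0 lower (2.02% and 1.44% of all genes), definitive endoderm-like cells 1 and 1 (0.559% and 0.239%), ExE ectoderm-like cells 1 and 2 (1.89% and 2.91%), and visceral endoderm-like cells 1 and 2 (4.49% and 4.3%). Several wide differences did not pass. Fgf8 in definitive endoderm-like cells (155.8 and 162.6 CPM against 41.2 and 35.8) had an edgeR adjusted p of 0.21, and Fgf15 in ExE mesoderm-like cells (27.8, 113.7, 46.6 and 58.8 CPM) one of 0.018. Fgfr3 in ExE mesoderm-like cells, at 38.5, 22.6, 40.8 and 39.4 CPM against 1.90, 1.18, 0 and 0, gave 0.021. Fgfr4 in visceral endoderm-like cells, at 35.01 and 12.3 CPM against 1.13 and 0, gave 0.022. Epiblast-like cells summed to 2959 to 3717 CPM of the 7 epiblast markers, and ExE ectoderm-like cells to 3333 and 3353 CPM of their 9. Streak-like cells also held 682.2 to 863.1 CPM of the 7 nascent mesoderm markers, against 17.5 to 34.1 in epiblast-like cells, and the part of these cells in the Fgf3 and Fgf10 calls was not tested. Visceral endoderm-like cells held 31137 and 9137 CPM of their own 9 markers, but also 7060 and 7157 CPM of the 7 definitive endoderm markers, more than the 3679 and 4596 CPM in definitive endoderm-like cells. The latter also held 669.5 and 1013.6 CPM of the epiblast markers, and Noto, an axial mesoderm marker, was among the 10 leading genes of their cluster. The part of these markers in the endoderm calls was not tested. With at least 10 cells per sum, which leaves fewer sums, the calls for Fgf3 and Fgf10 in streak-like cells, Fgf3 in ExE mesoderm-like cells and Fgf8 in ExE ectoderm-like cells passed, all others in those classes and in visceral endoderm-like cells did not, and definitive endoderm-like cells could not be fitted.

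Between the stages no test was possible, because E8.5 is 1 sample. As pooled levels, 3 of the 10 genes were lower at E8.5 by at least 1 on the log2 scale and 3 higher, while over 9886 genes 8.23% were lower and 6.99% higher. Of the 10 genes, 7 reached 10 CPM in a stage, the minimum set for those 9886, and of these 2 were lower (Fgf8 and Fgf10) and 1 higher (Fgfr3). The plates of the stages overlapped for every one of the 10 genes, although 1.41% of all genes had every E8.5 plate below and 0.384% every plate above. Sums over a stage mix the number of cells of a class with the level in those cells, and the plates were sorted for different cells. Epiblast-like, streak-like, haematoendothelial-like and ExE ectoderm-like cells were found at E7.5 only. Blood progenitor-like and megakaryocyte-like cells were found at E8.5 only. Nascent mesoderm-like and definitive endoderm-like cells had 1 cell each at E8.5.

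Fgf8 fell from 41.3 to 9.66 CPM, over plates of 0.0541, 55.03 and 120.8 (lowest, median and highest) at E7.5 and 0, 1.46 and 43.9 at E8.5. Its log2 ratio, -1.99, was smaller than the plate SD of 2.21. Fgf10 fell from 70.7 to 17.5 CPM (plates 12.8, 47.2 and 144.8, then 0.751, 17.1 and 37.7), a ratio of -1.95 against an SD of 1.24. Fgf4 fell from 4.27 to 0.84 CPM, a ratio of -1.52 against 1.41. Both Fgf10 and Fgf4 thus moved by more than the spread of plates, with plates that still overlapped.

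Fgfr3 went from 10.8 to 30.97 CPM (plates 3.49, 8.02 and 35.9, then 4.52, 24.3 and 95.5), a log2 ratio of 1.44 against a plate SD of 1.15. Without E8.5 plate 8 its ratio was 0.82. Fgfr4 went from 1.10 to 4.53 CPM, a ratio of 1.40 against 1.30, and 0.52 without E8.5 plate 1. Fgf17 went from 2.17 to 5.77 CPM, a ratio of 1.09 within its SD of 1.47, and 0.19 without E8.5 plate 8. Each of the 3 higher genes thus came within the fold when 1 plate was left out. Fgf3 (82.2 and 56.4 CPM), Fgf15 (16.9 and 11.99), Fgfr1 (109.1 and 77.02) and Fgfr2 (35.6 and 24.2) had ratios between -0.54 and -0.46. Without E8.5 plate 2, Fgf3 had a ratio of -1.79, Fgf15 had -1.08 without plate 8, and Fgfr2 -1.23 without plate 7.

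**Figure D4:**
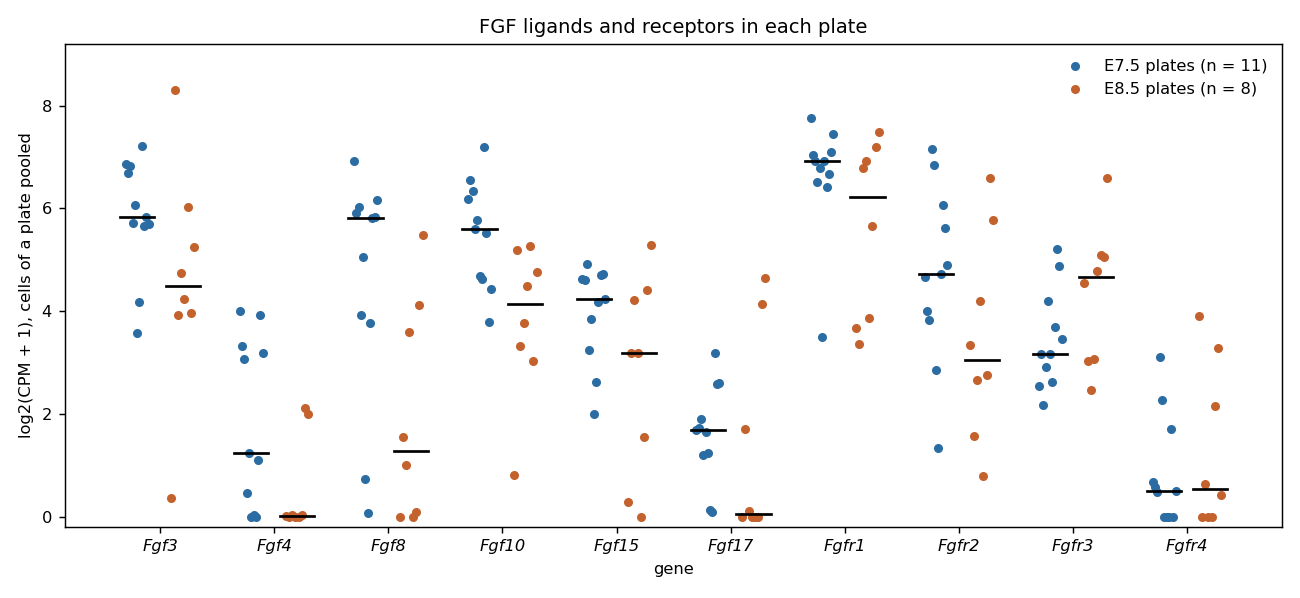
log2(CPM + 1) of each gene (horizontal axis) in the 11 E7.5 plates (blue) and 8 E8.5 plates (orange), cells of a plate pooled; black lines are medians over plates. The plates of the stages overlap for all 10 genes, and E8.5 plate 2 stands apart for Fgf3, where the next plate is at 63.98 CPM.

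Within classes present at both stages with at least 10 cells (8 classes), Fgf10 was lower at E8.5 by at least 1 on the log2 scale in 5 and higher in 1. It went from 87.95 to 5.22 CPM in ExE mesoderm-like cells, from 49.3 to 0.23 in visceral endoderm-like cells and from 32.7 to 3.74 in erythroid-like cells. In endothelial-like cells it went the other way, from 3.93 to 11.9. Fgfr3 was higher in 4 classes: neural (14.4 to 69.99 CPM), visceral endoderm (28.9 to 96.7), endothelial (1.34 to 11.5) and ExE mesoderm (49.7 to 146.9). The ExE mesoderm rise rests on E8.5 plate 8, since the plate 4 value given earlier lay below the E7.5 level. Fgfr3 was lower in pharyngeal and cardiac mesoderm-like cells (84.2 to 37.6). Fgf8 was lower in 2 classes and higher in 1, and in caudal cells it held 103.2 CPM at E7.5 (16 cells) and 99.7 at E8.5. Fgf3 was higher in 4 classes and lower in 3, and Fgfr1 passed that size in none of the 8. The stages of a class can also lie in different clusters: erythroid-like cells were cluster 9 at E7.5 and clusters 10 and 18 at E8.5, and 77.3% of E7.5 ExE mesoderm-like cells were in cluster 15, which held none at E8.5. Stage and plate cannot be told apart here, and the library protocol may differ with the stage as well.

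The genes whose levels most resembled each member over the 22 groups were sought among 13052 genes, with Pearson's r as a description, since groups share libraries. Fgf4 lay closest to Rxrg (0.93), Wnt8a (0.91) and Snph (0.91), and Fgf8 to Camk1g (0.90), Sp5 (0.89) and Pla2g1b (0.87). For Fgf17, Mnx1 (0.85) and Wnt8a (0.83) were among the 3 closest. Wnt8a, a Wnt ligand of the streak, was thus near 2 of the ligands. Fgf15 lay closest to Ggt7 (0.79), Vstm2b (0.78) and Fam171b (0.75), and Fgf10 to Mum1l1 (0.75), H2-T24 (0.72) and Rcor3 (0.70). For Fgf3 the nearest were Zfp607a (0.76), its chromosomal neighbour Fgf15 (0.70) and Thoc1 (0.69). Among receptors, Fgfr1 lay closest to Rgmb (0.94), Tnks1bp1 (0.93) and Dst (0.92), and Fgfr4 to Myo5b (0.94), Gltpd2 (0.93) and Cpn1 (0.93). Fgfr2 lay closest to Fhl1 (0.89), Large2 (0.89) and Rac3 (0.88), and Fgfr3 to Selenos (0.78), Tmem248 (0.76) and P3h2 (0.75).

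Of 47 further genes of the pathway, 29 reached the minimum for the stage comparison, of which 7 were lower and 2 higher at E8.5, beside 8.23% lower and 6.99% higher over all 9886 genes. Of the 12 targets and feedback inhibitors 6 were lower and 1 higher, with a median log2 ratio of -1.13 against 0.08 over all genes. Spry2, a Sprouty inhibitor of ERK signalling, went from 83.4 to 3.97 CPM (log2 ratio -4.09), and the ETS factors Etv1 and Etv5 had ratios of -2.45 and -1.39. Spred1 (-1.79), Spry4 (-1.49) and Il17rd (-1.31), inhibitors as well, were the others. Fgf5, a ligand of the late epiblast, went from 59.9 to 0.54 CPM (-5.31). Klb, the co-receptor for endocrine FGFs such as Fgf15, was higher (2.61). The higher feedback gene was Spry1 (1.04), named after its value was seen.

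In the named embryos 40 of the 47 were tested, and their counts stand beside the shares of all genes called higher and lower. ExE mesoderm-like cells, rich in Fgf3 and Fgf10, had 5 of 12 feedback and target genes lower than epiblast-like cells and 1 higher, by edgeR's quasi-likelihood test (2.02% of all genes higher and 1.44% lower). The widest log2 fold changes were -4.25 for Spry1, -3.09 for Spry4, -2.48 for Etv5 and -2.12 for the ERK phosphatase Dusp6. Flrt3, a membrane partner of the receptors, was higher (3.08), as were 3 heparan sulfate genes, among them Gpc3 (3.03) and Ndst1 (2.31). Fgf5 was lower there (-4.12) and in ExE ectoderm-like cells (-10.98).

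In ExE ectoderm-like cells 2 of the 40 were higher, the receptor adaptor Gab1 (log2 fold change 5.39) and the heparan sulfate carrier Sdc4 (3.29), and 7 were lower, among them Flrt3 (-8.61), Etv1 (-8.16) and Gpc3 (-6.63), beside 1.89% and 2.91% of all genes. Streak-like cells had 3 higher, Gpc3 (2.52), Flrt3 (1.54) and Spred1 (1.53), and 0 lower at the same threshold, beside 0.955% and 0.547%. Definitive endoderm-like cells had 2 higher, Flrt3 (4.38) and Gpc3 (2.35), beside 0.559% higher. Visceral endoderm-like cells had 5 higher, of which Gpc3 (4.45), Flrt3 (4.34), Gab1 (4.19) and Gpc4 (3.77) had the widest changes, and 4 lower, Etv1 (-4.97), Sdc1 (-2.57), Spry2 (-2.51) and Dusp6 (-1.85), beside 4.49% and 4.3%. Gpc3, a glypican that carries heparan sulfate, and Flrt3 were thus called higher in 4 of the 5 classes and lower in ExE ectoderm-like cells.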

How the data were processed

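The deposited files hold raw read counts per gene and cell. Per the labels and the study's methods, the authors made plate-based Smart-seq2 libraries from sorted cells. The paper counts 768 cells processed by scNMT-seq, a part of them as scM&T-seq, and 1056 by RNA sequencing alone. These equal the numbers of E8.5 and E7.5 wells, but the paper does not name the protocol of each plate. Reads were aligned with HISAT2 2.1.0 to GRCm38 and counted with featureCounts on Ensembl 87 genes. Strand and the handling of multiply mapped reads are not given in the sources used here. Reads without molecular identifiers are not independent molecules, so intervals cover counting error only.

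Cells were kept with at least 100000 reads and under the study's limits of 10% mitochondrial and 20% ribosomal reads (1634 of 1824, 89.6%). Plate medians ran from 224956 to 1699478.5 reads. No passing cells had identical counts. No doublet caller was run, since each well was sorted as a single cell. Cells were clustered in scanpy 1.11.5 (2000 variable genes, 30 components, 15 neighbours, resolution 1), with 57 FGF-related genes left out. A cluster took a class name from at least 3 markers found in at least 25% of its cells at 2-fold over the rest; with clusters rebuilt here, names may differ from the study's. Clusters 6, 7 and 21 had none of their own markers among their 10 leading genes. The genes and lists were chosen with earlier results of these data known.

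Levels are CPM of pooled counts, and log2 ratios between stages use a pseudocount of 1 CPM. Counts summed per embryo and class (at least 5 cells) were tested with edgeR 4.0.16 (R 4.3.3, TMM, filterByExpr, quasi-likelihood test, embryo block, 1% false discovery rate and log2 fold change of at least 1); standard errors are the log2 fold change divided by the square root of F. Nothing says that embryos came from separate litters, so p-values hold for these embryos only. With the embryo as a block, they rest on the spread of class sums left within embryos, estimated over all classes in a shared fit. For genes with no read in a group the bound uses 3 counts. On simulated data for the ExE mesoderm contrast (17175 genes, 50 changed at each fold, dispersion 0.2), 0 of 50 genes changed 2-fold were called. At 4-fold 27 were called, at 8-fold 50 and at 16-fold 50, and 0 of 16975 unchanged genes. Every simulated gene had this dispersion and no embryo effect, and changed genes had a mean of at least 50 reads per sum. These rates need not hold for sparser or more variable genes. Fgfr3, 31.9-fold higher in this contrast, was not called (edgeR adjusted p = 0.021).

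All 10 genes were named, with the 3 genes of highest Pearson correlation to each over groups of at least 20 cells (1 of those for Fgf17 is not reported here), and, of the pathway list, at most 8 called genes per comparison by size of change. Positions are from GENCODE M21 on GRCm38 and promoters from RefSeq, which listed 6 of the 10 genes. Alternatives were other depth limits, clusterings, pseudocounts, weightings, low count filters, scalings, DESeq2 1.42.0, at least 10 cells per sum, no embryo block, and leaving out each plate or embryo.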

Additional observations from a re-analysis of the deposited data

Results flagged for a closer look

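Of 39 sets of 4 to 10 embryos or plates tested with Dixon's criterion, 7 had a member far from the rest. The criterion's rate of about 1 in 20 assumes like units with normal spread. Sparse counts and plates sorted for different cells do not meet this, so 7 of 39 does not measure an excess. In streak-like cells, Fgf3 was 174.3 CPM in embryo 2 against 123.2 to 124.3 in the others, so all 4 were far above the epiblast. In ExE mesoderm-like cells, Fgfr3 was 22.6 CPM in embryo 2 and at least 38.5 in the others. Fgfr4 had 1.13 CPM in epiblast-like cells of embryo 4 and 0.370 CPM in ExE mesoderm-like cells of embryo 1. The other embryos had no read, so any read would have passed the criterion. Among E8.5 plates, Fgf3 was 316.0047 CPM on plate 2 with 63.98 next, Fgf8 was 43.9 on plate 8 with 16.5 next, and Fgfr3 was 95.5 on plate 8 with 33.3 next. Plate 2 held 53 of the 77 blood progenitor-like cells, and plate 8 held 25 of the 42 caudal cells of E8.5. The 11 E7.5 plates were too many for this criterion.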

How the results depend on the processing

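The count of genes higher at E8.5, 3 as reported, was 1 as a mean over cells, 1 with equal plate weights and 0 with a pseudocount of 10 CPM; leaving out 1 plate gave 1 to 3 higher and 3 to 4 lower. No stage ratio changed direction in 280 alternative values. The highest class kept its name for 5 genes at resolution 0.5, 6 with a 4000-read minimum and 6 without the 2% deepest cells, and for 7 to 10 otherwise.

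In definitive endoderm-like, ExE ectoderm-like, ExE mesoderm-like, streak-like and visceral endoderm-like cells, 0.798%, 4.79%, 3.46%, 1.502% and 8.80% of the genes tested were called. DESeq2's Wald test called 5.13%, 11.1%, 10.1%, 4.96% and 17.2%, and its share of higher calls was 36.3% against 70.1% in definitive endoderm-like cells, 47.4% against 58.3% in ExE mesoderm-like cells and 52.9% against 63.6% in streak-like cells. With at least 10 cells per sum the last 4 classes had 0.740%, 0.394%, 0.293% and 0.623%, and definitive endoderm-like cells gave no value. Without a low count filter, which tests more genes, definitive endoderm-like cells had 0.584%. Of the 10 FGF genes DESeq2 called 4 in definitive endoderm-like, 5 in ExE mesoderm-like and 7 in visceral endoderm-like cells, and at least 10 cells per sum left 1 in ExE ectoderm-like, 1 in ExE mesoderm-like and 0 in visceral endoderm-like cells, with fewer sums in the fit. Leaving out 1 embryo gave 0.139% to 0.811%, 1.40% to 3.04%, 1.58% to 2.19%, 0.602% to 0.971% and 3.03% to 5.68% of genes, and 0 to 2, 2 to 3, 2 to 3, 2 to 2 and 1 to 3 FGF genes; where 1 sum of a class was then left, it was assumed to vary like the other classes.

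Fgf3 and Fgf10 in streak-like cells, Fgf3 in ExE mesoderm-like cells and Fgf8 in ExE ectoderm-like cells were called under all 10 alternatives (highest adjusted p 0.0017, 0.0080, 0.0016 and 0.0067). Among fold changes of the 10 genes under the alternatives, 15 called values fell short of the threshold, 15 others newly passed it and 0 called values turned direction. Levels near 1 CPM rest on few reads, and E8.5, with 1 sample, has no error between animals. Classes were paired within embryos by the embryo block of the reported fit, and without that block 4 FGF genes in place of 3 were called in each of ExE ectoderm-like, ExE mesoderm-like and visceral endoderm-like cells. By replicate number no paired analysis was possible because these numbers only name cells.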
